A study of Mus musculus with 8 samples.

Results

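The Dlk1-Dio3 domain is an imprinted region on mouse chromosome 12 (12qF1). Its 6 host transcripts, Dlk1, Meg3, Rtl1, Rian, Mirg and Dio3, were taken by gene name from the 32567 genes of the RNA-seq table, and all 6 passed the expression limit, an average log2 CPM above 0, together with 15492 genes in all. The domain was chosen by its measured values: its ESC log2 ratios between the Htt-null and the wild-type library were already known when the genes were selected. The values of that comparison are therefore given as a description and support nothing.

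Long and small RNA were sequenced in undifferentiated mouse embryonic stem cells (ESC) and in differentiated cells grown from them (RA-DIFF). The parental ESC line is wild-type and the other line, called Htt-null, carries the Hdhex4/5 allele of huntingtin on both chromosomes. Cells were passaged 4 times off feeder cells, embryoid bodies were formed, and retinoic acid was added during that culture to give RA-DIFF. Each of the 4 conditions has 1 RNA-seq and 1 small RNA library, 8 samples in all, each line is a single line, and no difference between libraries has a replicate check. No p-value is printed, and intervals cover counting error only.

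In this domain the protein-coding genes Dlk1, Rtl1 and Dio3 are expressed from the paternal chromosome and the long non-coding RNAs Meg3 (also Gtl2), Rian and Mirg from the maternal one. Which parental allele is active is set by a methylated region between Dlk1 and Meg3, and the maternal RNAs carry clusters of miRNAs and C/D box snoRNAs. The domain is used as a readout of the imprinting state of pluripotent cells, and Meg3 is silenced in some stem cell lines.

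Total counts were between 63617410 and 110569127 in the RNA-seq libraries and between 11976744 and 25656673 in the small RNA libraries. Htt, the targeted gene, had 7260 counts (111 normalised CPM) in the Htt-null and 14385 (166 normalised CPM) in the wild-type ESC library. In RA-DIFF it had 9722 counts (98.7 normalised CPM) in the library labelled Htt-null and 8212 (73.3 normalised CPM) in the library labelled wild-type, against the labels. The gene count includes exons outside the targeted ones and need not fall to 0. In the readable part of the study's supplementary table of gene levels, both RA-DIFF columns carry the opposite names, so the RA-DIFF libraries are called by their labels throughout, and values with the labels exchanged are given beside the host transcripts. Exchanging the labels turns the sign of every RNA-seq ratio between the labelled RA-DIFF libraries, marker genes and gene lists included. Both ESC libraries had the pluripotency genes, summing over the 8 markers to 5599 normalised CPM in wild-type and 4793 in Htt-null ESC, against 267 in RA-DIFF labelled wild-type and 226 in RA-DIFF labelled Htt-null. Most of the RA-DIFF sums is Sox2, which neural progenitors also express, and the other 7 summed to 54.2 and 13.2.

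The sequences below show miRNAs of the domain and a stretch of Rtl1 that lies opposite 1 of them. All of the listed miRNAs but miR-1247-5p lie within or between the maternal RNAs. Mature miRNAs are from RefSeq (GRCm38.p6), 5' to 3', with the seed (bases 2 to 8) in capitals. RefSeq places 113 mature miRNA names between the start of Dlk1 and the end of Dio3, and 104 of them are in the small RNA table.
miR-770-3p: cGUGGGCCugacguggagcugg
miR-673-5p: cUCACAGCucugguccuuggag
miR-127-3p: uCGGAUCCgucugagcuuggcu
miR-434-3p: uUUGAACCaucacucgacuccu
miR-341-3p: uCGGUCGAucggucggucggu
miR-411-5p: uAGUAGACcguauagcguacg
miR-410-3p: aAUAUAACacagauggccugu
miR-541-5p: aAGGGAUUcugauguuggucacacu
miR-1247-5p: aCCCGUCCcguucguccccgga
miR-770-3p lies inside Meg3 and miR-673-5p between Meg3 and Rtl1. miR-127-3p and miR-434-3p lie opposite Rtl1, miR-341-3p inside Rian, miR-411-5p between Rian and Mirg, and miR-410-3p and miR-541-5p inside Mirg. miR-1247-5p lies just before Dio3, on the other strand. Shared seeds within the domain are few. Only 6 seeds occur in more than 1 of the 104 miRNAs, each in 2, and the pair with the most similar counts is shown here.
miR-379-3p: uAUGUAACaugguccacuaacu
miR-411-3p: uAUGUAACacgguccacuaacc

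The 10 mature miRNAs opposite Rtl1 were picked by position, so each is by construction the exact reverse complement of the Rtl1 strand. All 10 match the genome letters and lie within coding exon sequence of Rtl1 (GENCODE vM21, GRCm38). The site of miR-127-3p, at chr12:109592888-109592909 on the minus strand, is shown with the letters that pair with its seed in capitals.
Rtl1 site of miR-127-3p: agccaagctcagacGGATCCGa

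RefSeq promoters of 250 bases before to 50 after the start were found for 5 of the 6 genes, Rtl1 being the one not matched. Those of Dlk1, Meg3 and Dio3 are shown because Dlk1 and Meg3 lay on one side and Dio3 on the other in the ESC libraries. Capitals mark matches on either strand to the TATA box letters TATAAA, to the core of the Zfp57 motif, which is TGCCGC, or to the CCAAT box.
Dlk1, chr12:109452573-109452872, plus strand: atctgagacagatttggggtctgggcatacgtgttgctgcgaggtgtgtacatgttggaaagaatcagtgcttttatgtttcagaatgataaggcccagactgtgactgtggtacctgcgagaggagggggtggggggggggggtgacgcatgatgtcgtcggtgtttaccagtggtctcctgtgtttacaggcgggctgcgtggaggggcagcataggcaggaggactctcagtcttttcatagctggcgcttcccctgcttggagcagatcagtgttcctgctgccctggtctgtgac
Meg3, chr12:109540746-109541045, plus strand: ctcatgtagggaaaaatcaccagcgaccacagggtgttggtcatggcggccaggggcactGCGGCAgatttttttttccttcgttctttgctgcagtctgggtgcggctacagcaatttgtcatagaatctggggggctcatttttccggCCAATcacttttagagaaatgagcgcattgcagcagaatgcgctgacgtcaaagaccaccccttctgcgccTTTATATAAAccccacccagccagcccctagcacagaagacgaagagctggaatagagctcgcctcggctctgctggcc
Dio3, chr12:110278980-110279279, plus strand: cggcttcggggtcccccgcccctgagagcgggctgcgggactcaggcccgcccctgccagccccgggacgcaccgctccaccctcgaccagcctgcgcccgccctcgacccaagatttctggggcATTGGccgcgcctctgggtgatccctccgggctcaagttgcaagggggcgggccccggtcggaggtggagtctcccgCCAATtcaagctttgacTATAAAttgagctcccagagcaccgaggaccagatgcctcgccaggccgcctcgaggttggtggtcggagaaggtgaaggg
The Dlk1 window holds 9 CpG, the Meg3 window 13 and the Dio3 window 25, against a median of 7 over the 32851 promoters of the table. TGCCGC is in the Meg3 window and in 11.6% of all promoters, and TATAAA in those of Meg3 and Dio3 and in 13.6% of all. In the Meg3 window both matches to TATAAA overlap on opposite strands. CCAAT, in 37.4% of all promoters, is in the windows of Meg3 and Dio3. CACGTG, in 7.15% of all promoters, is in none of the 3. A second RefSeq promoter of Meg3, with 1 CpG, and that of Rian, with 0, hold none of these letters, and that of Mirg, with 10 CpG, holds 1 CCAAT. The RefSeq starts behind the second Meg3 window and the Mirg window lie 4397 and 5217 bases inside the gene entries that were counted. A match is a description of the letters and not a site.

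Dlk1, a transmembrane protein with EGF repeats that acts as a non-canonical Notch ligand, lies at chr12:109452823-109463336 on the plus strand (ENSMUSG00000040856). It had 113 counts (1.30 normalised CPM) in wild-type ESC and 188 (2.88) in Htt-null ESC, 6436 (57.4) in RA-DIFF labelled wild-type and 5984 (60.8) in RA-DIFF labelled Htt-null. Dlk1 was low in both ESC libraries and high in both RA-DIFF libraries. The RA-DIFF over ESC log2 ratio was 5.46 (counting interval 5.19 to 5.74) in the libraries labelled wild-type and 4.39 (4.19 to 4.62) in those labelled Htt-null. Between the ESC lines the Htt-null library lay above the wild-type one by a log2 ratio of 1.14 (0.80 to 1.49), and in RA-DIFF the labelled lines lay 0.08 (0.03 to 0.13) apart. With the labels exchanged the stage ratios are 5.54 and 4.31.

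Rtl1, a gene derived from the Gag-Pol part of a sushi-ichi retrotransposon and needed in the placenta, lies at chr12:109589194-109600330 on the minus strand (ENSMUSG00000085925). It had 185 counts (2.13 normalised CPM) in wild-type ESC and 208 (3.19) in Htt-null ESC, 631 (5.63) in RA-DIFF labelled wild-type and 598 (6.07) in RA-DIFF labelled Htt-null. Its ESC and stage differences were smaller than those of Dlk1. The ESC ratio was 0.58 (0.29 to 0.87) on the log2 scale, and the RA-DIFF interval of the labelled lines, -0.05 to 0.27, included 0. The stage ratios were 1.40 and 0.93 in the libraries labelled wild-type and Htt-null, and 1.51 and 0.82 with the labels exchanged. Maternal transcripts run through the same bases on the plus strand. The libraries were made by a strand-specific dUTP method and the methods name no strand option for the counting, leaving unnamed options at their defaults. Whether reads of the opposite strand were kept out of the Rtl1 count was not tested.

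Dio3, the deiodinase that inactivates thyroid hormones, lies at chr12:110279068-110281097 on the plus strand (ENSMUSG00000075707), 826 kb from the start of Dlk1. It had 506 counts (5.83 normalised CPM) in wild-type ESC and 225 (3.45) in Htt-null ESC, 117 (1.04) in RA-DIFF labelled wild-type and 44 (0.447) in RA-DIFF labelled Htt-null. Dio3 was the only one of the 6 genes with its highest level in an ESC library. The stage ratio was -2.48 (-2.79 to -2.19) in the libraries labelled wild-type and -2.94 (-3.45 to -2.48) in those labelled Htt-null. The library labelled Htt-null was the lower one at both stages, with log2 ratios of -0.76 (-0.99 to -0.53) in ESC and -1.21 (-1.76 to -0.71) in RA-DIFF. The ESC value lies close to the limit of 0.75 used below, and it is -0.70 when scaled by library size alone. With the RA-DIFF labels exchanged, the RA-DIFF ratio is 1.21 and the stage ratios are -3.69 and -1.72, so which line has the larger fall depends on the labels.

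Meg3 lies at chr12:109541001-109571726 on the plus strand (ENSMUSG00000021268) and is the first maternal RNA after the methylated region. It had 5065 counts (58.4 normalised CPM) in wild-type ESC and 8797 (135) in Htt-null ESC, 56273 (502) in RA-DIFF labelled wild-type and 41918 (426) in RA-DIFF labelled Htt-null. The ESC log2 ratio was 1.21 (1.16 to 1.26), and the ratio of the labelled RA-DIFF libraries was -0.24 (-0.26 to -0.22). The stage ratio was 3.10 (3.06 to 3.15) in the libraries labelled wild-type and 1.66 (1.63 to 1.69) in those labelled Htt-null. With the labels exchanged these stage ratios are 2.87 and 1.90.

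Rian, the host of C/D box snoRNAs and of miRNAs, lies at chr12:109603940-109661716 on the plus strand (ENSMUSG00000097451). It had 17657 counts (204 normalised CPM) in wild-type ESC and 25946 (398) in Htt-null ESC, 32170 (287) in RA-DIFF labelled wild-type and 46275 (470) in RA-DIFF labelled Htt-null. The library labelled Htt-null was higher at both stages. The log2 ratio was 0.97 (0.94 to 0.99) in ESC and 0.71 (0.69 to 0.73) in RA-DIFF, while the stage ratios were 0.50 (0.47 to 0.52) and 0.24 (0.22 to 0.26) in the libraries labelled wild-type and Htt-null. With the labels exchanged the RA-DIFF ratio is -0.71 and the stage ratios are 1.21 and -0.47, so the direction for the Htt-null line depends on them.

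Mirg, the host of the last miRNAs of the large cluster, lies at chr12:109729764-109749460 on the plus strand (ENSMUSG00000097391). It had 817 counts (9.42 normalised CPM) in wild-type ESC and 929 (14.2) in Htt-null ESC, 1423 (12.7) in RA-DIFF labelled wild-type and 1739 (17.7) in RA-DIFF labelled Htt-null. Mirg and Rian had the same order of the libraries between lines at each stage. Its log2 ratio was 0.60 (0.46 to 0.73) in ESC and 0.48 (0.37 to 0.58) in RA-DIFF, and the stage ratios were 0.43 (0.31 to 0.56) and 0.31 (0.19 to 0.43). With the labels exchanged the RA-DIFF ratio of Mirg is -0.48 and the stage ratios are 0.91 and -0.17, so the stage direction for the Htt-null line depends on the labels here as well.

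**Figure D1:**
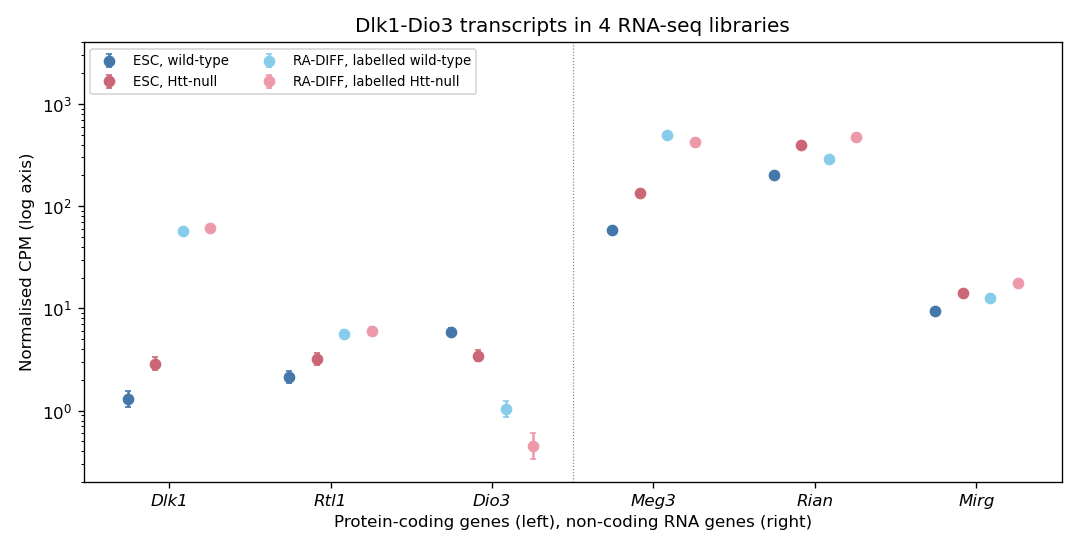
Normalised CPM (log axis) of the 6 transcripts in the 4 RNA-seq libraries, with the protein-coding genes on the left and the non-coding RNA genes on the right. Bars are 95% Wilson intervals, 1 library is 1 point, and Dlk1 lies at 1.30 and 2.88 CPM in ESC and at 57.4 and 60.8 in RA-DIFF while Dio3 lies highest in wild-type ESC at 5.83.

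Read against all genes, an absolute log2 ratio above 0.75 was used as the limit. In ESC 5 of the 6 genes were higher in the Htt-null library. Dlk1, Meg3 and Rian were past the limit, where 5.42% of the 15492 genes were, and Dio3 was past it in the lower direction, where 3.69% were. Rtl1 and Mirg stayed inside it. With library size alone 3 of the 6 were past the limit, Dio3 being inside it. The median of the 6 was 0.78, against -0.03 over all genes tested and -0.11 over the 544 genes tested on chromosome 12. These counts rest on the contrast that chose the genes. In RA-DIFF 0 of the 6 was past the limit upward in the library labelled Htt-null, where 11.9% of all genes were, and Dio3 alone was past it downward, where 9.22% were. The median of the 6 was 0.10, against -0.01 over all.

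Between stages, Dlk1, Meg3 and Rtl1 were past the limit upward in the libraries labelled wild-type, where 34% of all genes were, and Dio3 downward, where 26.2% were. In the libraries labelled Htt-null the same genes were past it, with 34.3% of all genes upward and 24.9% downward. The comparisons share libraries, so their values stand side by side only. With the RA-DIFF labels exchanged all 6 were past the limit in the libraries labelled wild-type, Rian at 1.21 and Mirg at 0.91 included. In those labelled Htt-null 3 were past a limit of 1, Rtl1 being inside it at 0.93. In the libraries labelled Htt-null Rian and Mirg lay near the median gene, at 0.24 and 0.31 against 0.17 over all genes tested.

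**Figure D2:**
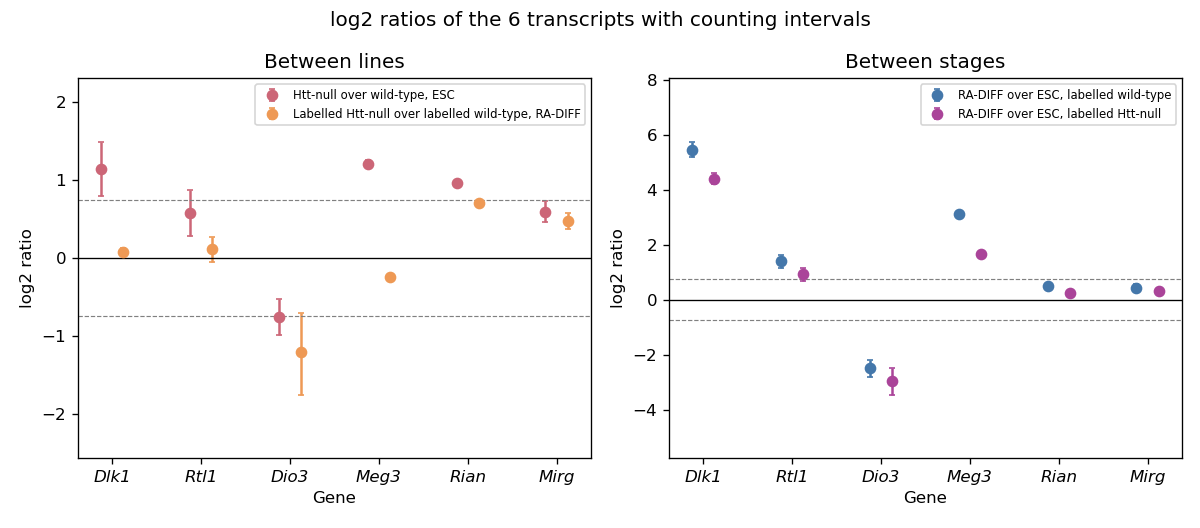
log2 ratios of the 6 transcripts between lines at each stage (left) and between stages (right), with 95% exact counting intervals and dashed lines at the limit of 0.75 in either direction. In ESC Dlk1, Meg3 and Rian lie above 0.75 and Dio3 at -0.76, and between stages Dlk1 lies at 5.46 and 4.39.

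Levels of different genes were compared per kb of exon sequence, over exon lengths between 2030 bases for Dio3 and 18234 for Rian. The lengths are from another GENCODE release than the one used for the counts, and the effect on the order was not tested. In wild-type ESC the order was Rian at 11.2, Meg3 at 3.23, Dio3 at 2.87, Mirg at 1.29, Rtl1 at 0.336 and Dlk1 at 0.230 CPM per kb. In Htt-null ESC it was Rian at 21.8, Meg3 at 7.46, Mirg at 1.95, Dio3 at 1.70, Dlk1 at 0.509 and Rtl1 at 0.502. Counting intervals of neighbours overlapped for Mirg and Dio3 and for Dlk1 and Rtl1 in Htt-null ESC. In both RA-DIFF libraries Dlk1 took the third place, at 10.2 CPM per kb in the library labelled wild-type and 10.7 in the one labelled Htt-null. Dio3 was last, at 0.514 and 0.220.

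Ratios between genes of the same library need no scaling between libraries, but per kb they rest on the same exon lengths. Rian per kb over Meg3 was 3.46 (3.35 to 3.57) in wild-type and 2.93 (2.86 to 3.00) in Htt-null ESC, and 0.567 (0.559 to 0.575) and 1.10 (1.08 to 1.11) in the RA-DIFF libraries labelled wild-type and Htt-null. Rian was the higher RNA in both ESC libraries and Meg3 the higher one in RA-DIFF labelled wild-type. Mirg over Rian varied less, between 0.0895 and 0.116 over the 4 libraries. Dlk1 over Meg3 was 0.0713 (0.0587 to 0.0860) in wild-type and 0.0683 (0.0588 to 0.0790) in Htt-null ESC, with intervals that overlap, and 0.366 and 0.456 in RA-DIFF labelled wild-type and Htt-null.

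**Figure D3:**
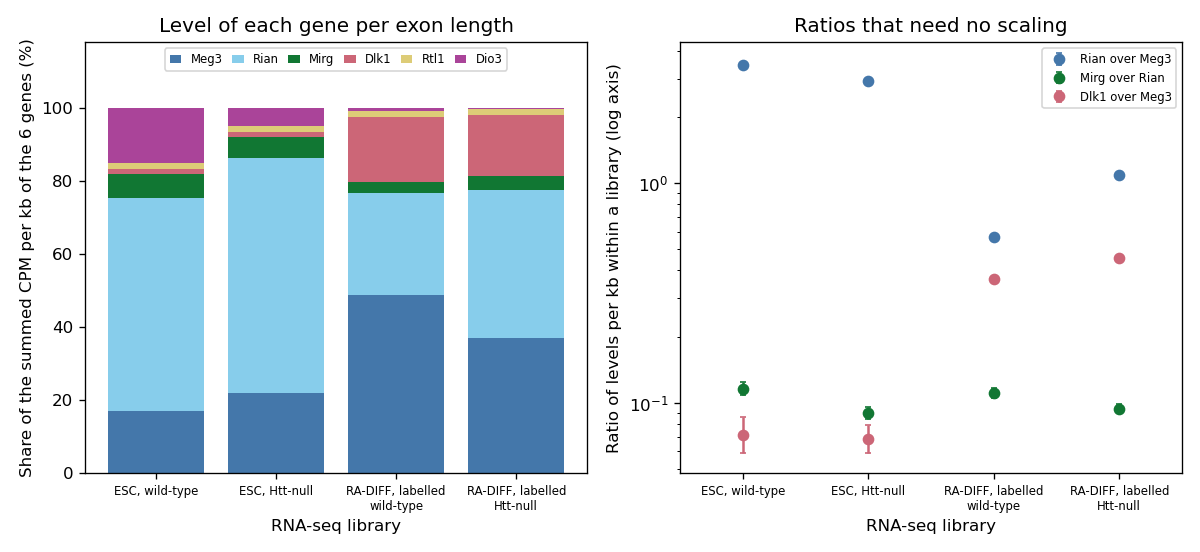
Left, share of each gene in the summed CPM per kb of the 6 genes, for each RNA-seq library. Right, ratios of levels per kb within a library (log axis) with 95% exact counting intervals: Rian over Meg3 is 3.46 and 2.93 in ESC and 0.567 and 1.10 in RA-DIFF, while Mirg over Rian lies between 0.0895 and 0.116.

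Further non-coding entries between the start of Rian and Mirg were also higher in Htt-null ESC. From the start of Begain to the start of Dync1h1 the table holds 56 genes, and 42 of the 50 that are not host transcripts are miRNA, snoRNA or other small RNA entries between Dlk1 and Dio3, with at most 31 counts in any library. Gm26945, a non-coding RNA inside Rian, had 82 counts in wild-type and 223 in Htt-null ESC and 41 and 60 in RA-DIFF labelled wild-type and Htt-null. Its ESC log2 ratio was 1.85 (1.48 to 2.24). Gm37899 had 94 and 184 counts in ESC, with a ratio of 1.38 (1.01 to 1.75). B830012L14Rik had 30 and 92, with a ratio of 2.01 (1.42 to 2.67), and its average log2 CPM of -0.01 is below the limit. Reads that lie wholly inside a stretch shared by more than 1 gene entry are not counted in the mode used, which touches hosts with small RNA genes inside them.

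Of 20 listed neighbours outside the imprinted genes 19 were measured. In ESC 0 of the 19 were past the limit, where 5.42% of all genes were upward and 3.69% downward, so a count of 0 is near the background, and their median was -0.12. The nearest upstream protein-coding gene of the table, Begain, a synaptic scaffold protein, had 207 counts in wild-type and 102 in Htt-null ESC, a log2 ratio of -0.61. Begain was the only neighbour past the limit in RA-DIFF, at -1.42, with 1130 counts in the library labelled wild-type and 370 in the one labelled Htt-null. In RA-DIFF 11.9% of all genes were past it upward and 9.22% downward, so 1 of the 19 is near the background. Dync1h1 and Ppp2r5c, beyond Dio3, lay at -0.34 and -0.48 in ESC.

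The miRNAs of the domain, counted in separate small RNA libraries, took 6.61% (6.60 to 6.62) of all miRNA counts in wild-type and 18.3% (18.3 to 18.4) in Htt-null ESC. In RA-DIFF they took 3.18% (3.18 to 3.19) in the library labelled wild-type and 1.85% (1.85 to 1.86) in the one labelled Htt-null. The share was highest in Htt-null ESC. Htt cannot be measured in small RNA, so the small RNA labels were not checked. Of the 95 miRNAs above the expression limit, 93 were higher in the Htt-null ESC library, with a median log2 ratio of 1.48 against -0.04 over the 687 miRNAs tested. Of these 93, 84 were past the limit of 0.75, where 25.2% of the 687 were, these 84 included. Between the labelled RA-DIFF libraries 17 of the 95 were higher under the Htt-null label, and the median was -0.40 against -0.03. Scaling by library size alone in place of TMM adds 0.23 to every ESC ratio and -0.48 to every RA-DIFF ratio of the small RNA libraries.

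miR-127-3p, whose perfect site in Rtl1 is shown above, was the most abundant of them. It had 478156 counts in wild-type and 1115404 in Htt-null ESC and 227985 and 122315 in RA-DIFF labelled wild-type and Htt-null. It made up 56.1% and 50.8% of the domain's miRNA counts in ESC and 27.9% and 27.2% in RA-DIFF. Its ESC log2 ratio was 1.10, beside 0.58 for Rtl1, and its RA-DIFF over ESC ratio in the libraries labelled wild-type was -0.90, beside 1.40 for Rtl1. The last value keeps its sign with library size alone, at -2.06. miR-434-3p, from the same strand, had a stage ratio of 2.01 in the libraries labelled wild-type, so miR-127-3p and miR-434-3p lay on different sides there. With library size alone that ratio of miR-434-3p is 0.85, and in the libraries labelled Htt-null its sign turns, from 0.48 to -1.40.

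In ESC the median of the miRNAs inside each maternal host lay further from 0 than the host. The 2 miRNAs inside Meg3 had a median of 1.497, beside 1.21 for Meg3, though miR-770-5p alone lay at 0.72. miR-770-3p, inside Meg3, had 52 counts in wild-type and 277 in Htt-null ESC, a log2 ratio of 2.28 (1.86 to 2.74). The 5 tested miRNAs inside Rian had a median of 2.00, beside 0.97 for Rian, and miR-341-3p among them had 6972 counts in wild-type and 30516 in Htt-null ESC. The 24 tested miRNAs inside Mirg had a median of 1.41, beside 0.60 for Mirg, and miR-410-3p had 60829 and 214172 counts. Between Rian and Mirg, where no host of the list lies, the 39 tested miRNAs had a median of 1.51.

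In RA-DIFF Rian and Mirg lay on a different side from their miRNAs under the deposited labels. Rian was at 0.71 and the miRNAs inside it at -0.37, and Mirg was at 0.48 and its miRNAs at -0.37. Meg3 was at -0.24 and its 2 miRNAs at 0.39, or -0.09 with library size alone, which is the side of Meg3. Exchanging the labels of the RNA-seq libraries alone would put Rian and its miRNAs on the same side, and exchanging both pairs would not. For Dio3 and miR-1247-5p, at -1.21 and -1.32 in RA-DIFF, the same exchange would put them on different sides.

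miR-1247 lies next to Dio3 and away from the maternal clusters. miR-1247-5p had 743 counts in wild-type and 212 in Htt-null ESC and 97 and 26 in RA-DIFF labelled wild-type and Htt-null. miR-1247-3p had 263, 57, 19 and 4 in the same order. Both were the only miRNAs of the domain above the limit that were lower in Htt-null ESC, at -1.93 (-2.16 to -1.71) and -2.32 (-2.77 to -1.91). Dio3, counted in the RNA-seq libraries, was also lower in Htt-null ESC, at -0.76, and its order over the 4 conditions was the same as that of miR-1247-5p.

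**Figure D4:**
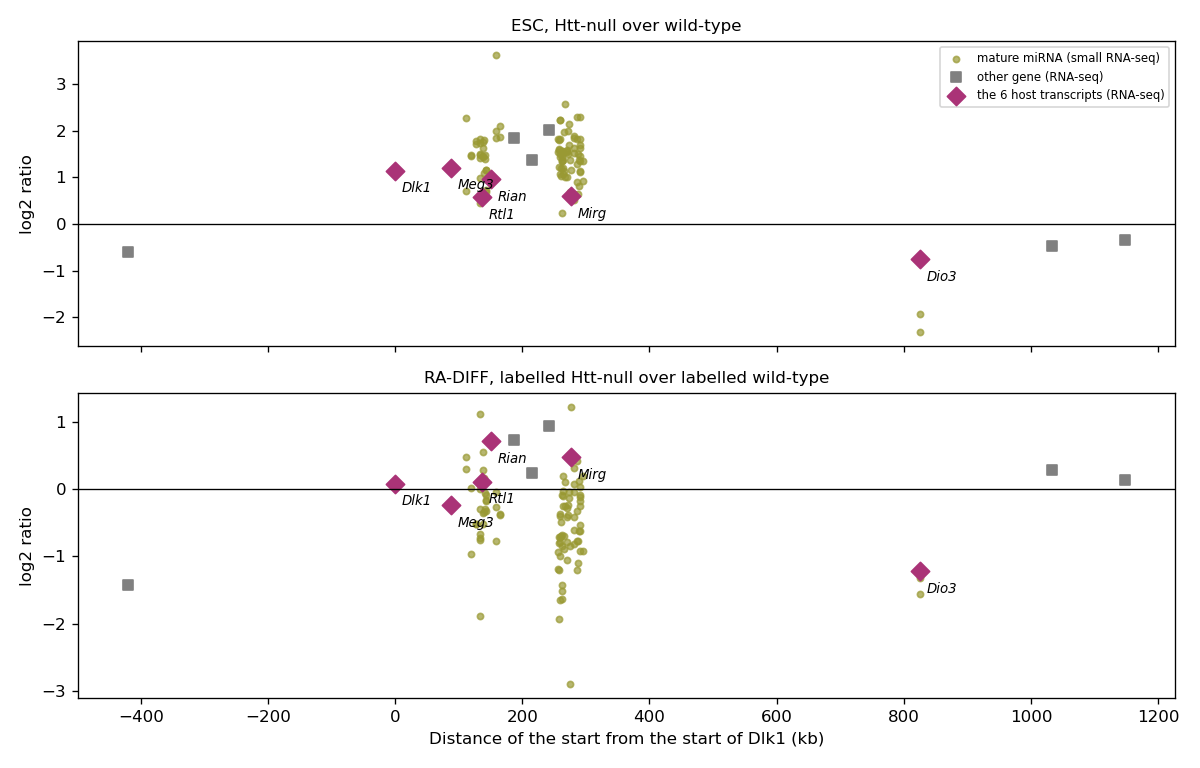
log2 ratios between lines along the domain, by distance in kb from the start of Dlk1, for ESC (top) and RA-DIFF (bottom). Diamonds are the 6 host transcripts, squares other genes and dots mature miRNAs above the expression limit. In ESC all hosts but Dio3, at -0.76, and all miRNAs but the pair next to Dio3 lie above 0.

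Gene lists of related function were read beside these values. Their counts, and those of the marker genes, stand against all 15492 genes tested, of which 5.42% were past the limit upward and 3.69% downward in ESC, 11.9% and 9.22% in RA-DIFF, and 34% and 26.2% between stages in the libraries labelled wild-type. Regulators of imprints and DNA methylation were measured for 18 of 18 genes. In ESC 1 was past the limit upward, Dppa3, a maternal factor that protects methylation, with 91 counts in wild-type and 551 in Htt-null ESC, and 0 downward, with a median of -0.14. Zfp57, which keeps imprints methylated, lay at -0.01 and Trim28, its partner, at -0.03. In RA-DIFF 0 were past the limit upward and 2 downward, Dppa3 and Dnmt3l. Between stages, in the libraries labelled wild-type, 2 were past it upward and 9 downward. The ESC and RA-DIFF counts of this list are near the shares over all genes.

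For the thyroid hormone list, to which Dio3 belongs by function, 14 of 16 genes were tested. In ESC 1 was past the limit downward, the transporter Slco1c1, with 12 counts in wild-type and 4 in Htt-null ESC, and the median was 0.06. In RA-DIFF 3 were past it upward, Crym among them at 3.12, and 2 downward. Dio2, the activating deiodinase, had 0 counts in both ESC libraries. For the Notch list 15 of 15 were tested, with 0 past the limit in either direction in ESC, 2 upward and 5 downward in RA-DIFF, and 11 upward and 2 downward between stages in the libraries labelled wild-type. Of all genes, 11.9% upward and 9.22% downward were past it in RA-DIFF, and 34% and 26.2% between these stages. Dlk2, the paralogue of Dlk1, lay at -0.04 in ESC.

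Of the sushi-ichi genes, relatives of Rtl1, 7 of the 10 in the table were tested. In ESC 2 were past the limit upward, Cxx1a and Cxx1c, near-identical copies whose reads are uncertain, and 1 downward, Zcchc5, which had 3 counts in wild-type and 0 in Htt-null ESC and allows no fold. Of all genes 5.42% were past it upward and 3.69% downward. In RA-DIFF 1 of the 7 was past it upward, Zcchc5 at 5.61 with 26 counts in the library labelled wild-type and 1138 in the one labelled Htt-null, and 0 downward. All 7 were past the limit upward between stages in the libraries of both labels, where 34% and 34.3% of all genes were, and Rtl1 as well. Of imprinted genes of other domains, 12 maternally expressed ones were tested, with 0 upward and 1 downward in ESC, Grb10 at -1.46. Of 20 paternally expressed ones 3 were past it upward and 0 downward in ESC, Peg13, Magel2 and Airn, the last with 7 counts in wild-type and 9 in Htt-null ESC, beside 5.42% and 3.69% of all genes. In RA-DIFF 7 of these 20 were past it upward and 0 downward, beside 11.9% and 9.22% of all genes. Of the 12 maternally expressed ones 3 were past it upward in RA-DIFF, H19 at 4.08 and Osbpl5 at 1.71 among them, and 1 downward, Cdkn1c at -1.35. The medians in ESC were -0.23 and 0.12.

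Markers of other cell types differed between the labelled RA-DIFF libraries, and all directions given for RA-DIFF turn round with the labels exchanged. Of all genes 11.9% were past the limit upward and 9.22% downward in RA-DIFF. All 11 tested fibroblast and mesenchyme markers were higher past the limit in the library labelled Htt-null, and they summed to 2610 normalised CPM over the 12 of the list against 648 in the one labelled wild-type. Of the 10 neuronal markers 8 were lower past the limit, summing to 1321 against 2857. No fibroblast or neuronal marker was at 0 in RA-DIFF. For related gene groups the study reports the opposite directions in its Htt-null RA-DIFF cells. There, changed collagen and extracellular matrix genes were mostly lower, and most of the changed neuron-specific genes were higher. Of the 8 pluripotency markers 6 were lower past the limit under the Htt-null label. Of the 6 neural progenitor markers 3 were lower past the limit, Pax6, Hes5 and Sox1, and 1 was higher, Vim, with a median log2 ratio of -0.34, while the summed level was higher. The endothelial list summed to 88.0 against 23.5, of which Kdr made up 71.7 and 17.9, with Pecam1 on the other side at a log2 ratio of -1.36. The neural progenitor list summed to 5094 against 3733, the muscle list to 4.76 against 2.19 and the endoderm list to 47.2 against 16.6, of which Dab2 made up 42.8 and 12.3. In ESC 6 of the 11 tested fibroblast and mesenchyme markers were lower past the limit in the Htt-null library and 1 was higher, beside 3.69% and 5.42% of all genes. The list summed to 39.9 in the Htt-null and 57.3 in the wild-type library, with Dcn at 0 in the first and Lum and Twist2 at 0 in the second. The ESC sums were 320 and 287 for neuron, 116 and 105 for neural progenitor, 233 and 209 for endothelium, 25.5 and 19.6 for muscle and 18.6 and 29.9 for endoderm. In each of these lists 1 gene made up most of the ESC sum. In Htt-null and wild-type ESC, Stmn2 had 209 and 214, Vim 77.9 and 80.9 and Pecam1 212 and 180. Des had 24.8 and 19.3, and Dab2 10.3 and 19.8. The part of these markers in the host transcript values was not tested, and in bulk RNA a changed share of cells and a changed level per cell cannot be told apart.

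The genes outside the window whose pattern over the 4 libraries was most like that of Meg3 were Gm5436, Nutf2-ps1 and Gm13092, with root mean square differences of the centred log2 CPM of 0.071, 0.076 and 0.089. Gm5436 and Gm13092 are processed pseudogenes by the table, and Nutf2-ps1 is named as one, so their reads may be shared with other copies. Those most like Dlk1 were Asb4, Rftn2 and Opcml, at 0.096, 0.118 and 0.168. Asb4 had 22 counts in wild-type and 34 in Htt-null ESC, and 1113 and 1226 in RA-DIFF labelled wild-type and Htt-null.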

How the data were processed

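RNA-seq and small RNA-seq were carried out on 8 samples, 1 library per condition and assay. The authors aligned paired-end reads to GRCm38.p4 with TopHat2 2.0.14 and the GENCODE annotation, counted them per gene with HTSeq 0.6.1 in intersection-nonempty mode and deposited raw counts. For small RNA they trimmed reads with cutadapt 1.3, mapped them to mature miRNAs with BWA 0.7.5a-r418, kept uniquely mapped reads with SAMtools 0.1.18 and deposited raw counts, so miRNAs with near-identical copies can be undercounted. The RNA-seq libraries were strand-specific (dUTP), and the methods name no strand option for the counting and leave unnamed options at defaults. Columns were assigned to samples by name, and 0 columns of per-sample values were left unused.

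TMM factors and the average log2 CPM were computed with edgeR 4.0.16 (R 4.3.3) over the 4 libraries of an assay. A log2 ratio used a prior count of 0.5, and genes past the limits had an absolute log2 ratio above 0.75 and an average log2 CPM above 0. Normalised CPM are CPM of the TMM-scaled library. Intervals are at the 95% level, Wilson for levels and shares and exact (Clopper-Pearson) for ratios, and cover counting error only. A count of 0 allows up to 3 counts. Since no condition has a replicate, no dispersion could be estimated and no p-value is printed. Tests at an assumed dispersion served only as alternative settings. The ratio step was tested on simulated data. Alternatives were library size alone, DESeq2 1.42.0 size factors, TMM over each pair of libraries, a prior count of 2, no expression limit, a limit of 1, edgeR's exact test at an assumed dispersion of 0.1 or 0.01, and exchanged RA-DIFF labels. Exon lengths are from GENCODE vM21, a different release from the one used for the counts, and sequences and miRNA positions from RefSeq, both on GRCm38. Python 3.11.15, pandas 2.3.3, scipy 1.17.1 and matplotlib 3.10.9 were used.

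The host transcripts, gene lists and limits were chosen with earlier results of these data known. Genes were named by the lists, with at most 4 examples each, the 3 genes most like Meg3 and Dlk1, and the 2 miRNAs with the most counts per host interval. Gm26945, Gm37899 and B830012L14Rik were named as further genes of the window after their values were seen. miR-379-3p and miR-411-3p were chosen for their shared seed after their counts were seen. A result of the thyroid hormone list is not reported here.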

Additional observations from a re-analysis of the deposited data

Results flagged for a closer look

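Meg3 had opposite signs between the lines at the 2 stages. Its log2 ratio was 1.21 in ESC and -0.24 between the labelled RA-DIFF libraries, and neither counting interval includes 0. The median over the miRNAs of the domain also changed sign, from 1.48 in ESC to -0.40 in RA-DIFF. Neither difference was tested, since each condition has 1 library, and with the RA-DIFF labels exchanged both RA-DIFF values are above 0.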

How the results depend on the processing

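No paired analysis was possible because each condition has 1 library. Leaving out a replicate was not possible for the same reason. Over 4 settings of scaling and prior count, all 96 log2 ratios of the 6 genes kept their sign, and the largest shift was 0.07. Still, 14 of the 96 fell outside their counting intervals. Rian in ESC was among them, at 1.02 with library size alone. With the RA-DIFF labels exchanged, the RA-DIFF ratio of Dio3 is 1.21. The number of host transcripts past the limits in ESC was 4, falling to 3 with library size alone, where Dio3 lay at -0.70, to 2 with a limit of 1 and to 0 with the exact test at an assumed dispersion of 0.1, and in RA-DIFF it fell from 1 to 0 with that test. Between stages it was 4, with 6 in the libraries labelled wild-type once the RA-DIFF labels are exchanged, and 3 in those labelled Htt-null with a limit of 1 or the exact test at 0.1. Of all genes, 1411 were past the limits in ESC, against 9948 without the expression limit, 835 with a limit of 1 and 252 with the exact test at 0.1. In RA-DIFF 3267 were, against 11849 without the expression limit and 1341 with that test. Between stages, 21618 genes in the libraries labelled wild-type and 21362 in those labelled Htt-null were past the ratio limit without the expression limit, against 9316 and 9172. The median of the domain's miRNAs with library size alone was 1.71 in ESC, -0.89 in RA-DIFF, -0.81 between stages in the libraries labelled wild-type, against 0.35, and -3.39 in those labelled Htt-null, against -1.51. With the RA-DIFF small RNA labels exchanged it was 0.40 in RA-DIFF, and 0.012 and -1.02 between stages. Any difference smaller than the unknown spread between cultures is not resolved here, and Dio3 in RA-DIFF rests on 44 and 117 counts.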
